A study of Mus musculus with 10 samples.

Results

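The genes described here are 31 genes of glycolysis and of the response to low oxygen, chosen as a named list of members of both pathways. Of the 31 genes, 25 had at least 1 probe set of their own on the Affymetrix mg_u74av2 array, together 35 of its 12422 probe sets that are no controls. A probe set is a group of short array oligonucleotides whose brightness is summarised to 1 value. The glycolytic enzymes (14 genes listed, 11 tested) were kept apart from the other members (17 listed, 13 tested), which are transporters, regulators of flux and hypoxia genes. The RNA was total RNA of mammary tumours, taken from adult females at an age of 90 days. The series concerns MMTV-PyMT mice, whose transgene places the middle T oncogene of polyomavirus under a viral promoter that is active in mammary epithelium. Of 10 arrays, 9 carry a strain name in their title: FVBn with 1 array (B) and ILn, LP, MOLF and NZB with 2 arrays each (A and B). The strain label reads FVB/Nj throughout, which makes the titles the sole source of the groups, and they also call each of the 9 a mix without saying of what. Whether arrays A and B of a strain stem from separate mice is not stated, so p-values measure only the spread between arrays, which may be technical. The titles also carry dates, numbered here in order, and what they date is not stated. ILn A and NZB B carry title date 2, LP A and MOLF A title date 3 and the remaining strain arrays title date 4. Both arrays of a strain thus carry different dates, so the spread between them also holds any difference between dates. The array that names no strain entered no comparison.

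Glycolysis splits glucose to pyruvate in the cytosol and yields ATP without oxygen, and lactate dehydrogenase turns the pyruvate to lactate. When oxygen is scarce, the prolyl hydroxylases that mark HIF1A for destruction slow down, and the stabilised protein pairs with ARNT at promoters with a short core of letters (ACGTG or GCGTG). Many glycolytic enzymes, the glucose transporter Slc2a1 and genes such as Adm, Car9 and Bnip3 are textbook HIF targets, and tumours are known for high glycolysis even with oxygen present.

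Levels below are log2 intensity after quantile normalization over the 9 strain arrays, and a difference of 1 on this scale is 2-fold. A floor was set at 4.75, an intensity of 27.0. Across probe sets MOLF A and NZB B were unlike the other 7 arrays: the correlation was 0.927 between them, 0.812 to 0.868 between them and any of the rest, and at least 0.931 within the rest. The defining markers of the labelled tissue were present on all 9 arrays for luminal mammary epithelium (Krt8 at 10.81 to 11.40), while the basal keratins Krt14 and Krt5 were at the floor on all 9. The control ratio of 3′ to 5′ signal, a sign of RNA integrity, also followed strain. For actin it lay between 0.22 and 0.28 (log2) for FVBn and ILn but between 0.60 and 1.12 for the 3 other strains, and its part in the results below was not tested. In bulk tissue, fewer cells of a type and less RNA per cell cannot be told apart. Precision is limited by the number of arrays.

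No glycolysis or hypoxia gene passed the test in any of 6 comparisons. Each of the 32 tested probe sets, for 24 genes, was compared with limma, with Benjamini-Hochberg adjustment over all 9897 probe sets tested and a threshold of 0.05. The count was 0 of 32 for ILn against the other 3 strains with 2 arrays (0.394% of all probe sets passed), 0 for LP (0.313%) and 0 for MOLF (0.414%). It was also 0 for NZB (0.101%), for the single FVBn array against the 4 other strains (0.313%) and for the F test over ILn, LP, MOLF and NZB (0.748%). FVBn has no replicate and was assumed to vary like the other strains. At an unadjusted p under 0.05 the counts were 3 of 32 for ILn (background 7.11%), 4 for LP (5.66%), 4 for MOLF (6.43%) and 4 for NZB (8.38%). They were 1 for FVBn (3.42%) and 5 for the F test (7.89%). At the background shares, 1 to 3 of 32 probe sets would be counted, so the members lay near the background or a little above it.

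**Figure D1:**
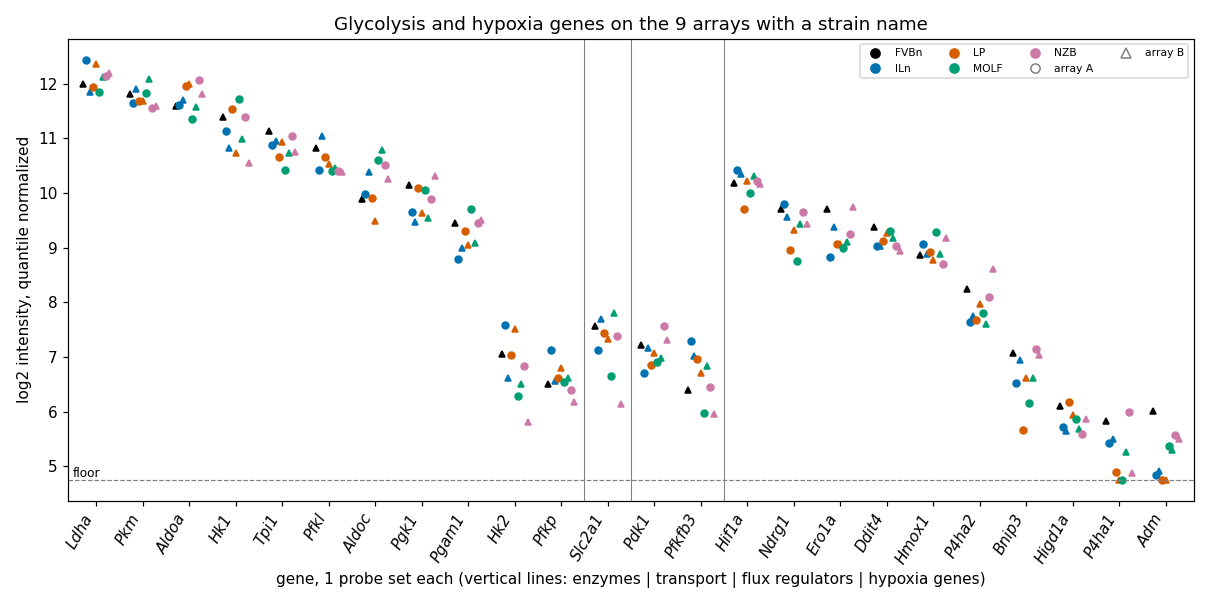
Quantile normalized log2 intensity of the 24 tested genes (1 probe set each) on the 9 arrays with a strain name; colour gives the strain, circles array A, triangles array B, and the dashed line the floor at 4.75. Vertical lines separate enzymes, transport, flux regulators and hypoxia genes. Within each gene the strains overlap for most genes, and Adm and P4ha1 lie at or near the floor.

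The enzymes spanned the whole pathway. The hexokinases Hk1 and Hk2, which trap glucose in the cell by phosphorylation, ranged over the 9 arrays from 10.56 to 11.72 and from 5.81 to 7.58. Phosphofructokinase, the committed step, was measured through Pfkl (10.38 to 11.04) and Pfkp. The lower pathway was measured through Tpi1, Pgk1 (9.47 to 10.31), Pgam1 and Pkm, and lactate production through Ldha. No level of one gene was set against that of another, because brightness depends on the probe set. Gpi1 and Eno1 had no probe set of their own and are named only. Gapdh had only 2 probe sets shared with other gene symbols beside the array's own controls, so no value is given for these 3 enzymes. A second Hk2 probe set was at the floor on all 9 arrays and was not tested. The median range of an enzyme over the 9 arrays was 0.85 on the log2 scale (0.53 for Pkm to 1.77 for Hk2), against 1.09 for all tested probe sets. A range above 1 was found for 3 of 11 enzymes and for 56.7% of all tested probe sets. Brightness differs between these sets: among enzymes with a mean level of 9 or more (9 genes) the median range was 0.71, and among all 1167 such probe sets it was 0.74.

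Aldolase C (Aldoc), the brain-type isoform of the enzyme that splits fructose bisphosphate, had the smallest p of any member in 2 of the strain comparisons. Its level was 9.91 on LP A, 9.49 on LP B, 9.98 on ILn A, 10.39 on ILn B, 10.61 on MOLF A, 10.79 on MOLF B, 10.52 on NZB A, 10.26 on NZB B and 9.89 on FVBn B. Both LP arrays were thus the lowest of the 8 arrays of strains with a pair, and both MOLF arrays the highest. LP (9.70 ± 0.29, SD, n = 2) differed from the other 3 strains (10.43) by -0.73 on the log2 scale (95% interval -1.13 to -0.32), with limma adjusted p = 0.295. MOLF (10.70 ± 0.12, SD, n = 2) differed from its other 3 strains (10.09) by 0.61 (0.20 to 1.01), with limma adjusted p = 0.434. The F test over the 4 strains gave limma adjusted p = 0.356. Within title date 4, which holds 1 array of each strain, the differences were -1.08 for LP and 0.65 for MOLF. Their directions were fixed by the order of the arrays just given, so only their sizes are informative.

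Aldolase A (Aldoa), the muscle-type isoform that most tissues also use, was lowest in MOLF. Its brighter probe set was at 11.36 on MOLF A, 11.58 on MOLF B, 11.62 on ILn A, 11.71 on ILn B, 11.97 on LP A, 12.00 on LP B, 12.07 on NZB A, 11.81 on NZB B and 11.59 on FVBn B. All 4 LP and NZB arrays lay above the 5 arrays of FVBn, ILn and MOLF. MOLF differed from the other 3 strains by -0.39 (95% interval -0.68 to -0.10; 11.47 ± 0.15, SD, n = 2, against 11.86), with limma adjusted p = 0.50. In the other Aldoa probe set, too, all 4 LP and NZB arrays (10.93 to 11.24) lay above the 5 others (at most 10.54). It had its lowest arrays elsewhere, at 9.64 on ILn B and 10.24 on both ILn A and MOLF B. There ILn differed from the other 3 strains by -0.87, with limma adjusted p = 0.21, the smallest p of any member in the strain comparisons, and NZB by 0.66 (adjusted p = 0.397). Both Aldoa probe sets are of a type that can share probes with similar sequences, as are those of Hif1a and Pkm.

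The LP and NZB arrays were also the highest for markers of skeletal muscle, ahead of ILn, MOLF and FVBn. The summed intensity of 15 tested muscle genes was 13720 on LP A and 13001 on LP B, 11233 on NZB A and 11379 on NZB B, 4400 on ILn A and 4410 on ILn B, 2755 on MOLF A and 2109 on MOLF B, and 1849 on FVBn B. The muscle myosin gene Myh2 was at the floor on all 9 arrays. All 15 muscle genes were higher in LP than in the mean of the other 3 strains, 6 of them past the test, and all 15 were lower in MOLF, 7 of them past it. The part of muscle RNA in the Aldoa differences was not tested.

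The other enzymes differed less between strains than Aldoc or not beyond the spread of the arrays. Pgam1, phosphoglycerate mutase, was at 8.80 on ILn A, 9.0 on ILn B, 9.30 on LP A, 9.05 on LP B, 9.71 on MOLF A, 9.09 on MOLF B, 9.46 on NZB A, 9.50 on NZB B and 9.46 on FVBn B. Both ILn arrays were the lowest, with a difference of -0.45 from the other 3 strains (95% interval -0.89 to -0.01), limma adjusted p = 0.691, and of -0.20 within title date 4. Pyruvate kinase Pkm, which makes the pyruvate, was at 11.55 on NZB A, 11.59 on NZB B, 11.65 on ILn A, 11.90 on ILn B, 11.68 on both LP arrays, 11.84 on MOLF A, 12.09 on MOLF B and 11.81 on FVBn B. The NZB arrays were the lowest, and the difference from the other 3 strains was -0.23 (-0.52 to 0.05; adjusted p = 0.642). In the second Pkm probe set both MOLF arrays (11.29 and 11.18) lay above the other 7, with a difference of 0.50 (limma adjusted p = 0.569), and ILn was at -0.53 (adjusted p = 0.476), so the probe sets do not give the same order of strains.

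Pfkp, the platelet-type phosphofructokinase, was at 6.40 on NZB A, 6.17 on NZB B, 7.13 on ILn A, 6.55 on ILn B, 6.62 on LP A, 6.79 on LP B, 6.54 on MOLF A, 6.61 on MOLF B and 6.5 on FVBn B. Both NZB arrays were the lowest, at -0.42 from the other 3 strains (95% interval -1.11 to 0.26; adjusted p = 0.688), and at -0.25 within title date 4. Triosephosphate isomerase Tpi1 was at 11.13 on FVBn B, 10.89 on ILn A, 10.96 on ILn B, 10.67 on LP A, 10.93 on LP B, 10.42 on MOLF A, 10.74 on MOLF B, 11.05 on NZB A and 10.76 on NZB B. FVBn was highest, by 0.33 over the mean of the 4 strains (-0.11 to 0.77; adjusted p = 0.998) and by 0.21 within title date 4, with NZB A the next array. Ldha, the lactate dehydrogenase subunit of muscle and many tumours, was at 12.44 on ILn A, 11.86 on ILn B, 11.94 on LP A, 12.37 on LP B, 11.85 on MOLF A, 12.13 on MOLF B, 12.14 on NZB A, 12.20 on NZB B and 11.99 on FVBn B. The strains overlapped for Ldha, and the 5 differences ranged from -0.17 (MOLF) to 0.07 (NZB), with 95% intervals that reached no farther than -0.71 (FVBn) and 0.52 (NZB). Within title date 4 the ILn difference turned from 0.05 to -0.35.

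**Figure D2:**
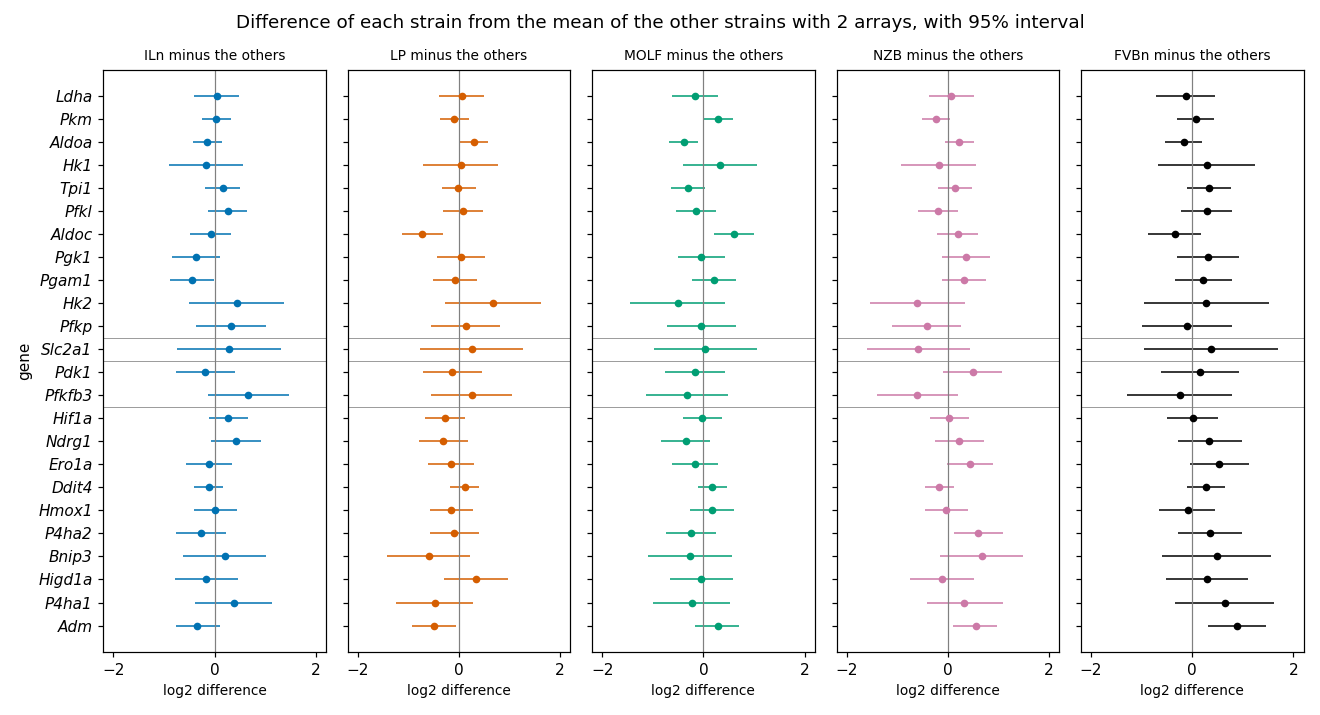
Log2 difference of each strain from the mean of the other strains that have 2 arrays (horizontal axis), with its 95% interval, for the 24 tested genes. No difference passed the adjusted threshold; Aldoc in LP (-0.73) and MOLF (0.61) and Adm in FVBn (0.89) lie farthest from 0 against their intervals.

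Of the transporters, only Slc2a1, the basal glucose transporter, was tested. It was at 7.13 on ILn A, 7.69 on ILn B, 7.43 on LP A, 7.33 on LP B, 6.65 on MOLF A, 7.81 on MOLF B, 7.38 on NZB A, 6.14 on NZB B and 7.57 on FVBn B. Its 2 lowest values were on MOLF A and NZB B, the pair unlike the rest. NZB differed from the other 3 strains by -0.58 (95% interval -1.60 to 0.44; adjusted p = 0.697), and within title date 4, without those arrays, by -0.22. The LP difference turned from 0.25 to -0.29 there. The lactate and pyruvate carrier Slc16a1 was too dim to be tested, at the floor on all strain arrays but NZB A (5.15). Slc16a3, the lactate exporter of glycolytic cells, had no probe set of its own and is named only.

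Both regulators of flux were tested and neither passed. Pfkfb3, which makes the sugar bisphosphate that activates phosphofructokinase, was at 7.29 on ILn A, 7.02 on ILn B, 6.97 on LP A, 6.71 on LP B, 5.97 on MOLF A, 6.83 on MOLF B, 6.45 on NZB A, 5.96 on NZB B and 6.40 on FVBn B. Both ILn arrays were the highest, LP A next, and MOLF A and NZB B the lowest. ILn differed from the other 3 strains by 0.67 (95% interval -0.13 to 1.47; adjusted p = 0.783), and by 0.36 within title date 4. The second Pfkfb3 probe set was at the floor on 7 of 9 arrays and above it on MOLF A (6.39) and NZB B (6.57), and its difference for ILn had the opposite sign (-0.57). Pdk1, which keeps pyruvate out of the mitochondrion by inhibiting pyruvate dehydrogenase, ranged from 6.71 to 7.56, and both NZB arrays were above the 6 of the other 3 strains.

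Hif1a, the oxygen-regulated subunit, had a range of 0.72, where the median was 0.74 among probe sets with a mean level of 9 or more. Hif1a was at 10.42 on ILn A, 10.35 on ILn B, 9.70 on LP A, 10.23 on LP B, 10.01 on MOLF A, 10.31 on MOLF B, 10.23 on NZB A, 10.17 on NZB B and 10.18 on FVBn B. Both ILn arrays were the highest, with MOLF B next, and the difference from the other 3 strains was 0.27 (95% interval -0.11 to 0.66; adjusted p = 0.807), falling to 0.13 with the title date as a block and 0.09 within title date 4. In the second Hif1a probe set the NZB arrays were instead the highest among the strains with a pair, by 0.20 (adjusted p = 0.68). HIF1A is controlled mostly as a protein, which the arrays do not measure. Egln3, a prolyl hydroxylase of HIF1A, had no probe set of its own and is named only.

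Adrenomedullin (Adm), a secreted vasodilator peptide induced by low oxygen, was the hypoxia target with the smallest p in LP, NZB and FVBn. It was at the floor (4.75) on both LP arrays, at 4.83 on ILn A, 4.91 on ILn B, 5.37 on MOLF A, 5.29 on MOLF B, 5.57 on NZB A, 5.49 on NZB B and 6.01 on FVBn B. The arrays of a strain lay together and no strain overlapped another, with FVBn highest, then NZB, MOLF, ILn and LP, over a range of 1.25. FVBn differed from the mean of the 4 strains by 0.89 (95% interval 0.32 to 1.45; limma adjusted p = 0.67) and NZB from the other 3 by 0.55 (0.11 to 0.98; limma adjusted p = 0.516). Because both LP arrays were at the floor, the mean of the other 3 strains was at least 1.40-fold higher than LP (limma adjusted p = 0.788). These sizes depend on the floor: with it at the 15th percentile they were -1.52 for LP, 0.89 for NZB and 1.14 for FVBn, none past the test. With every probe set tested and no filter on dim ones, Adm passed in FVBn (limma adjusted p = 0.00429), NZB (0.041), LP (0.0421) and the F test (0.0254). Over all alternatives its adjusted p ran from those values up to 1.0 in FVBn, 1.0 in NZB and 0.998 in LP.

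Among the remaining targets, NZB had the highest mean of the strains with a pair in Bnip3, P4ha2 and Ero1a. Bnip3, a mitochondrial outer membrane protein that promotes the removal of mitochondria, was at 7.15 on NZB A, 7.03 on NZB B, 6.52 on ILn A, 6.95 on ILn B, 5.67 on LP A, 6.61 on LP B, 6.16 on MOLF A, 6.62 on MOLF B and 7.07 on FVBn B. NZB differed by 0.67 (95% interval -0.16 to 1.49; adjusted p = 0.647), and by 0.42 within title date 4. FVBn B lay between both NZB arrays. P4ha2, a collagen prolyl hydroxylase subunit, was at 8.09 on NZB A, 8.61 on NZB B, 7.64 on ILn A, 7.75 on ILn B, 7.68 on LP A, 7.97 on LP B, 7.81 on MOLF A, 7.61 on MOLF B and 8.25 on FVBn B. NZB differed by 0.60 (0.12 to 1.09; limma adjusted p = 0.521), and by 0.31 within title date 4, without NZB B. The second P4ha2 probe set had the opposite sign for NZB (-0.25).

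P4ha1, another isoform of this hydroxylase subunit, was at the floor on LP B and MOLF A and at 5.42 on ILn A, 5.5 on ILn B, 4.89 on LP A, 5.25 on MOLF B, 5.99 on NZB A, 4.87 on NZB B and 5.82 on FVBn B. Its strains overlapped, and both NZB arrays were 1.12 apart. Ndrg1, a stress-induced cytosolic protein, was at 9.80 on ILn A, 9.56 on ILn B, 8.95 on LP A, 9.32 on LP B, 8.76 on MOLF A, 9.44 on MOLF B, 9.65 on NZB A, 9.43 on NZB B and 9.71 on FVBn B. ILn differed by 0.43 (95% interval -0.07 to 0.92; adjusted p = 0.764) and by 0.09 within title date 4, with ILn B below NZB A, and the second probe set gave 0.31 with both ILn arrays above the 6 others. Higd1a, a small protein of the inner mitochondrial membrane, was at 6.18 on LP A, 5.94 on LP B, 5.72 on ILn A, 5.65 on ILn B, 5.87 on MOLF A, 5.68 on MOLF B, 5.59 on NZB A, 5.86 on NZB B and 6.10 on FVBn B. LP differed by 0.33 (-0.29 to 0.96; adjusted p = 0.903), and FVBn B lay between its 2 arrays.

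Ddit4, an inhibitor of mTOR signalling, had the narrowest range of all members at 0.44. It was at 9.38 on FVBn B, 9.03 on both ILn arrays, 9.12 on LP A, 9.27 on LP B, 9.30 on MOLF A, 9.18 on MOLF B, 9.04 on NZB A and 8.94 on NZB B. FVBn was highest, by 0.27 over the mean of the 4 strains (95% interval -0.10 to 0.64; adjusted p = 0.998). Ero1a, the oxidase that forms disulfide bonds in the endoplasmic reticulum (listed under its older symbol Ero1l), ranged from 8.83 to 9.75, and NZB differed by 0.43 (-0.02 to 0.89; adjusted p = 0.605) but by 0.08 within title date 4. In the second Ero1a probe set the NZB arrays (9.41 and 9.26) were the highest, with a difference of 0.46 (limma adjusted p = 0.516). The haem-degrading enzyme Hmox1 ranged from 8.71 to 9.29. Car9, the carbonic anhydrase widely used as a hypoxia marker, had no probe set of its own and is named only.

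**Figure D3:**
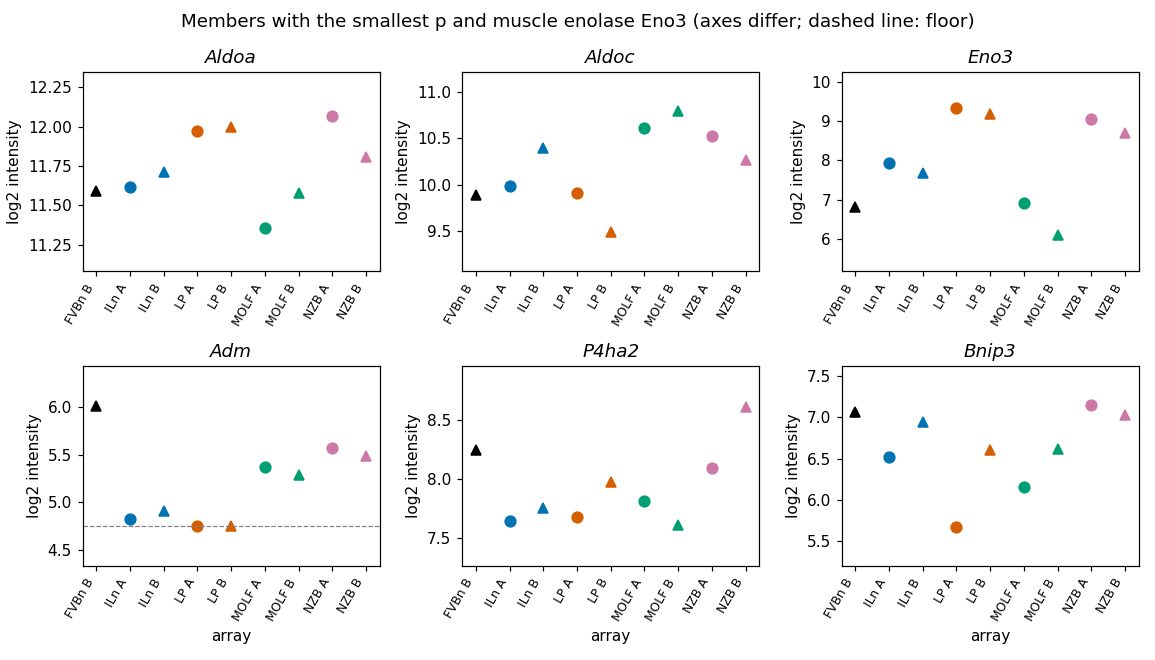
Log2 intensity of Aldoa, Aldoc, the muscle enolase Eno3, Adm, P4ha2 and Bnip3 on each of the 9 arrays (colour by strain, circles A, triangles B; vertical axes differ). Aldoa and Eno3 are higher on the LP and NZB arrays than on the 5 others, Aldoc is highest on the MOLF arrays, and the LP arrays are at the floor for Adm.

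The upstream sequence is shown for the 4 members with the smallest p, over all their probe sets, whose window held a HIF core. For Aldoa and Pkm that p came from the second probe set, not from the one with the highest mean. Whether HIF1A acts on these genes through these windows was not tested, and DNA outside the windows was not searched. The sequences are the 250 bases before the RefSeq start on GRCm38.p6, read 5′ to 3′ on the gene's strand, with each core in capitals. The letters searched were ACGTG and GCGTG on both strands, so CACGT and CACGC are the same cores read on the other strand. Aldoa lies at chr7:126799255-126799504 on the minus strand (1 of its 3 windows), Aldoc at chr11:78322823-78323072 on the plus strand (1 of its 2), Adm at chr7:110627407-110627656 on the plus strand (its only window) and Pkm at chr9:59656977-59657226 on the plus strand (1 of its 2).
Aldoa: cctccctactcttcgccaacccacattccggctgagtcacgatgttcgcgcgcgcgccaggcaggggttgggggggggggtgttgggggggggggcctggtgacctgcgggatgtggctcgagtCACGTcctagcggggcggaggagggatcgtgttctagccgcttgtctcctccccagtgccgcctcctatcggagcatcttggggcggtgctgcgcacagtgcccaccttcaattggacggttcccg
Aldoc: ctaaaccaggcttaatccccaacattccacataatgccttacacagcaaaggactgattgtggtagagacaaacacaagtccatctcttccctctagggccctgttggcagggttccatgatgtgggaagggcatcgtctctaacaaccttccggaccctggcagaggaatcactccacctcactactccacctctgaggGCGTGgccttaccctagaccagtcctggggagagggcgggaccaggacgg
Adm: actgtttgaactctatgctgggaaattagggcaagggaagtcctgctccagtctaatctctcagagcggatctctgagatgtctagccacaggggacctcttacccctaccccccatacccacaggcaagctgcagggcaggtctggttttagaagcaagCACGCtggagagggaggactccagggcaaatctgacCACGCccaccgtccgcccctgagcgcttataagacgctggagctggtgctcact
Pkm: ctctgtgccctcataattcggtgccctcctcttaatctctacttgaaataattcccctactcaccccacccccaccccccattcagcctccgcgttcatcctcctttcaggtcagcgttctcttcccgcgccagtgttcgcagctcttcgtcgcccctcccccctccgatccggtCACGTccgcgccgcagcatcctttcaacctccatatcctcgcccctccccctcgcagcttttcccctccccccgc
The Aldoa core begins at -126 and the Pkm core at -75 from the start, the Aldoc core at -50, and both Adm cores at -90 and -54. Of 29 members with a window in the table, 27 held a core (12 of 14 enzymes and all 15 of the others), or 93.1%. Among all genes with a window 41.5% held one, and among the 5674 genes tested on the arrays 59.6% did. Per window the share was 84.6% of 39 for the members and 38.6% of 32851 for all. The member windows held a median of 17 CG pairs and all windows 6, and the part of that composition in the share was not tested. A match is a run of letters, not a site where binding was measured.

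The medians of both groups depended on the scaling in most strains. For the 11 enzymes the median difference was 0.03 for ILn, 0.04 for LP, -0.04 for MOLF and 0.07 for NZB, where the medians over all tested probe sets lay between -0.02 and 0.01. The SD of the enzymes' array mean within a strain was 0.085. For the 13 other members the medians were 0.01 for ILn, -0.15 for LP, -0.17 for MOLF and 0.23 for NZB, with an SD within a strain of 0.116. The value of -0.17 for MOLF became -0.01 without MOLF A, and that of -0.15 for LP became -0.02 without LP A. Other scaling turned the sign of the enzymes' median in ILn (-0.06 with trimmed mean scaling) and in NZB (-0.07 with trimmed mean scaling, -0.21 with median centring), and that of the other members in LP (0.02 with median centring). Median centring also moved the enzymes' median to 0.32 in LP (0.19 with trimmed mean scaling) and to -0.22 in MOLF. The value of 0.23 for NZB became 0.05 with the title date as a block, 0.08 within title date 4 and 0.0 with median centring. On the single FVBn array the medians were 0.22 for the enzymes and 0.34 for the other members, against -0.02 over all tested probe sets, and 18 of 24 members lay above the mean of the 4 strains (11 of 13 of the other members), where 47.9% of all tested probe sets did.

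The counts of genes whose arrays did not overlap those of the other strains were read against the whole array. In ILn 3 of 32 probe sets lay above (Pfkfb3, Hif1a and the second of Ndrg1) and 1 below, with backgrounds of 6.71% and 3.72%. In LP 1 lay above and 2 below (backgrounds 4.42% and 2.55%), and in MOLF 2 above and 1 below (2.80% and 3.38%). In NZB 6 lay above (Adm, Bnip3, P4ha2, Pdk1, the second of Ero1a and the second of Hif1a). Below lay 2 (Pfkp and Pkm), with backgrounds of 3.77% above and 4.13% below. FVBn B was above all 8 other arrays for 5 probe sets and below them for 0 (7.86% and 5.70%). The share in NZB above was thus the farthest from its background, at 18.8% of the 32, and it includes genes with several probe sets that disagree.

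**Figure D4:**
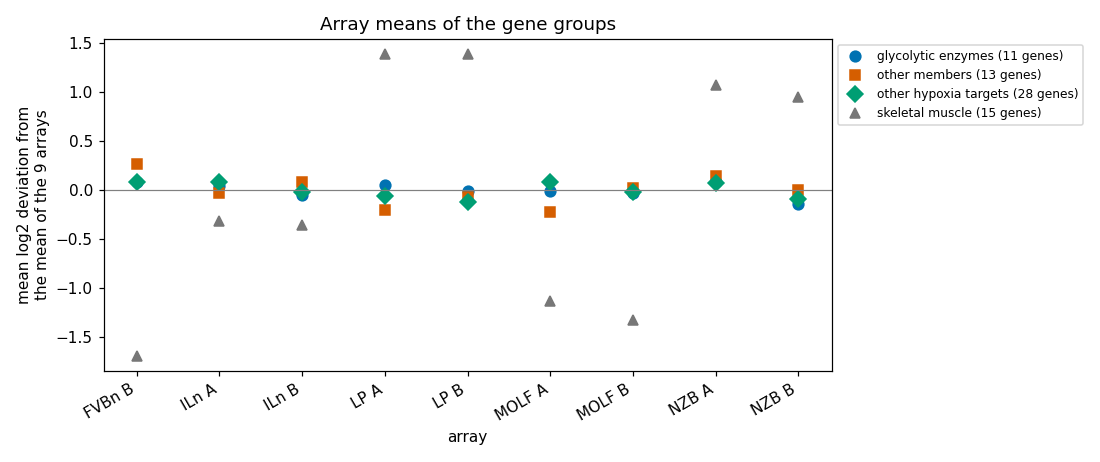
Mean log2 deviation from each gene's mean over the 9 arrays, for the 11 glycolytic enzymes, the 13 other members, 28 other hypoxia targets and 15 skeletal muscle markers, by array. The member groups stay within 0.27 of 0 on every array, while the muscle markers run from -1.69 (FVBn B) to 1.39 (both LP arrays).

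The width of the intervals set what could be seen. The median half-width of the 95% interval of a member was 0.46 on the log2 scale in the 4 strain comparisons (0.29 to 1.02) and 0.60 in FVBn (0.37 to 1.33). The whole interval lay within a 2-fold difference either way for 18 of 24 genes in ILn, 18 in LP, 18 in MOLF, 16 in NZB and 15 in FVBn. For the rest, among them Slc2a1 in each of the 5, the interval reached past a 2-fold difference on at least 1 side. Both arrays of a strain differed by a median of 0.25 for the members in both ILn and LP, and of 0.26 in both MOLF and NZB. Over all tested probe sets these values were 0.21 for ILn, 0.24 for LP and 0.46 for both MOLF and NZB, larger than the members' in MOLF and NZB. The members were also the brighter set, with a median level of 9.19 against 6.89 for all tested probe sets.

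Among other genes of the pathway, only the muscle enolase Eno3 passed. Of 21 tested genes of glycolysis and pyruvate use that are no members, 1 was lower in MOLF and 0 passed in the other strain comparisons. Eno3 was at 6.92 on MOLF A, 6.08 on MOLF B, 7.94 on ILn A, 7.69 on ILn B, 9.35 on LP A, 9.18 on LP B, 9.05 on NZB A, 8.70 on NZB B and 6.82 on FVBn B. MOLF and FVBn were lowest, ILn between, and LP and NZB highest, the order of the muscle markers given above, of which Eno3 is 1. In MOLF, Eno3 fell by 2.15 on the log2 scale (SE 0.26, 4.44-fold; limma adjusted p = 0.0227), and the F test gave adjusted p = 0.0308. The MOLF call held in 6 of 17 alternatives with a test, with adjusted p from 0.00721 to 0.149 and values from -2.75 to -1.71. It was lost without either array of ILn, LP or NZB, without MOLF B, with MOLF A and NZB B both left out, with the title date as a block, with trimmed mean scaling and with no filter. The muscle mutase Pgam2 had the smallest p in LP (1.97, adjusted p = 0.102) and ILn (-1.23, adjusted p = 0.346), and Eno3 in NZB (1.02, adjusted p = 0.361) and FVBn (-1.29, adjusted p = 0.575). Pgam2 was at the floor on both MOLF arrays, ILn B and FVBn B, so its value of 1.97 in LP is a lower bound and its size in ILn is not fixed.

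In 4 further lists no gene passed in any comparison. Of 7 gluconeogenesis genes, Fbp1, the bisphosphatase that runs opposite to phosphofructokinase, came nearest: -1.47 in LP (adjusted p = 0.149), 1.66 in NZB (0.124), -0.76 in ILn (0.568) and 0.57 in MOLF (0.821), with an F test at adjusted p = 0.0654. In FVBn it was Fbp2, the muscle form (-0.87, adjusted p = 0.998). Fbp1 was at the floor on both LP arrays, so its LP difference is at least of that size. Fbp2 was at the floor on FVBn B, LP B and both ILn arrays, so its size is not fixed. Of 28 other hypoxia targets the smallest p belonged to Lox, the collagen crosslinking oxidase, in ILn (1.36, adjusted p = 0.25), Ccng2 in LP (-0.47, 0.848), Dusp1 in MOLF (0.60, 0.469), Klf6 in NZB (-0.94, 0.516) and Tfrc, the transferrin receptor, in FVBn (0.53, 0.998). Of 11 oxygen sensing genes it belonged to Cited2 in ILn (0.19, 0.809), LP (0.18, 0.903) and NZB (-0.20, 0.656), to Vhl, which marks hydroxylated HIF1A for destruction, in MOLF (0.84, 0.892) and to Arnt in FVBn (0.44, 0.998). Of 8 pentose phosphate genes it belonged to H6pd in ILn (-0.19, 0.811), Tkt in NZB (-0.55, 0.493) and Pgd in LP (-0.34, 0.637), MOLF (0.28, 0.696) and FVBn (0.23, 0.998). The values in brackets are log2 differences with limma's adjusted p. Lox was at the floor on MOLF A and NZB B, and Vhl on LP B, so their differences in ILn and MOLF are lower bounds.

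Other marker lists moved with strain as well. The 6 salivary gland genes summed to 23485 on FVBn B and to 25281 on ILn A and 23805 on ILn B, against 4128 on MOLF A, 5118 on MOLF B and 209 to 360 on the LP and NZB arrays, and all 6 passed in ILn. Of 4 erythroid genes 2 passed in ILn, with sums of 2676 and 2430 there and 619 to 1695 elsewhere. Macrophage (7), endothelial (5), adipocyte (5) and mammary epithelial (7) genes gave 0 calls in the strain comparisons. Their part in the differences of Pfkfb3, Hif1a and Pgam1 in ILn and of Adm in FVBn was not tested.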

How the data were processed

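The deposited table held 1 intensity value per probe set on a linear scale for each of 10 Affymetrix arrays of mammary tumour RNA labelled with biotin, per the labels. No source used here says how the authors summarised probes to an intensity. The trimmed mean intensity (2% left out at each end) was 150.1 on every array except ILn A, where it was 500.2. In R 4.3.3 with limma 3.58.1 the 9 strain arrays were quantile normalized on the log2 scale, floored at the 30th percentile and fitted with 1 mean per strain (lmFit, eBayes with trend). Controls were left out (66 of 12488 probe sets), and 9897 probe sets above the floor on at least 2 of 9 arrays were tested. The fit had 4 residual degrees of freedom, a prior of 3.3 and a median SD of 0.337. All strains shared 1 spread per probe set, although arrays A and B differed with an SD of 0.379 for ILn and 0.466 for LP but 0.863 for MOLF and 0.913 for NZB, so p-values can be too small where MOLF or NZB weigh most. Symbols came from GEO's platform annotation (10833 probe sets with 1 symbol, 396 with several, 1193 with none) and were updated by Entrez ID for 10817. The script was tested on simulated data.

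The members, gene lists and tests were chosen with earlier results of these data known. A gene is given by its tested probe set with the highest mean. Values on every array are given for members whose arrays lay beyond all the others with the largest differences (up to 3 each way per comparison), for the 5 smallest p of the F test, for the 3 highest and 3 lowest mean levels, and for 6 fixed genes (Hif1a, Slc2a1, Gapdh, Ldha, Car9, Bnip3). Of the fixed genes, Gapdh and Car9 had no probe set of their own and thus no values. Alternatives were the scaling, the floor, the filter, the title date or array letter as a block, values within title date 4, and leaving out arrays. Eno3 was added to them after the data were seen. The array letter does not pair the samples: the deviations of A arrays of different strains correlated between -0.71 and 0.13. The value of -0.71 was that of MOLF A with NZB A, and all other pairs lay between -0.02 and 0.13. MOLF A and NZB B, the arrays unlike the rest, carry different letters.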

Additional observations from a re-analysis of the deposited data

How the results depend on the processing

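The count of member probe sets past the test was 0 under every alternative run except 1: with no filter it was 1 (Adm) for LP, NZB, FVBn and the F test, with adjusted p of 0.0421, 0.041, 0.00429 and 0.0254. The setting with no filter adds only probe sets that lie at the floor on most arrays. With the array letter as a replicate block the count was 0 in each comparison. None of the 16 member differences for which alternatives were run changed direction. These 16 were picked because the arrays of the strain lay beyond all those of the others. Leaving out arrays or keeping only title date 4 could thus hardly turn their sign. Slc2a1 and Ldha were not among the 16, and within title date 4 Slc2a1 in LP turned to -0.29 and Ldha in ILn to -0.35. The Eno3 call in MOLF, added after the data were seen, was kept in 6 of 17. Median differences moved by more than the spread between arrays as follows. With median centring the enzymes went to 0.32 in LP, -0.22 in MOLF and -0.21 in NZB, and the other members to 0.19 in ILn, 0.02 in LP and 0.0 in NZB. With trimmed mean scaling the enzymes went to -0.06 in ILn, 0.19 in LP and -0.07 in NZB. Without MOLF A and NZB B the enzymes went to 0.22 in NZB and 0.13 in FVBn, and the other members to -0.04 in MOLF. Within title date 4 the enzymes went to -0.18 in ILn and 0.18 in NZB, and the other members to -0.04 in MOLF and 0.08 in NZB. With the title date as a block the other members went to 0.05 in NZB. Leaving out 1 array at a time gave -0.05 to 0.07 for the enzymes in ILn and -0.03 to 0.16 in NZB, and -0.06 to 0.16 for the other members in ILn, -0.23 to -0.02 in LP and -0.25 to -0.01 in MOLF. The cause of these moves was not tested. Signal near the floor limits Adm, P4ha1 and Higd1a, and groups of at most 2 arrays were not tested for outlying arrays.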

Other observations

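The array whose title names no strain was set to the same intensity distribution and entered no comparison. Of the 24 members, 5 lay above all 9 strain arrays there and 5 below, where 16.4% of all tested probe sets lay above and 17.3% below. Hk2 was at 9.48 against 5.81 to 7.58 on the 9 arrays, Aldoa at 13.0 against 11.36 to 12.07, Bnip3 at 8.43 against 5.67 to 7.15, P4ha1 at 6.79 against 4.75 to 5.99 and Higd1a at 6.73 against 5.59 to 6.18. On the other side, Aldoc was at 7.57 against 9.49 to 10.79, Slc2a1 at the floor against 6.14 to 7.81, Pfkl at 9.95 against 10.38 to 11.04, Ddit4 at 8.38 against 8.94 to 9.38 and Ero1a at 8.71 against 8.83 to 9.75.

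Of 21 other genes of glycolysis and pyruvate use, 13 lay above the 9 arrays, among them the insulin-responsive glucose transporter Slc2a4 (9.22 against 4.75 to 6.70), the muscle isoforms Pfkm (10.38), Eno3 (11.04) and Pgam2 (9.81), and Pdk4 (10.24 against at most 7.55). All 15 tested muscle genes lay above as well, with a summed intensity of 43449 against 1849 to 13720 on the 9 arrays, and so did all 5 adipocyte genes (Adipoq at 12.41). Of 7 mammary epithelial genes 5 lay below, with the milk protein gene Wap at the floor against 10.19 to 11.51. Another milk protein gene, Csn2, was the 1 that lay above (11.93 against 10.33 to 11.73). Their part in the member values was not tested, and a single array with no group allows no comparison.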
